A study of Mus musculus with 586 samples.

Results

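The ectoderm on the anterior side of the E7.5 mouse embryo was followed from its distal tip to its proximal edge in 27 Geo-seq libraries of 3 embryos, out of 586 samples in the series. Geo-seq sequences RNA from small groups of cells cut by laser from cryosections of known position. The members are all libraries with the region code A in sections 1 to 9 of E7.5 embryos 1, 2 and 3, with section 1 at the distal tip. The labels give the code but not its meaning, and A is read as anterior and P as posterior, following the atlas published from this series. Set against them are region P of E7.5 embryos 3 to 6 (12 libraries from sections 3, 6 and 9) and region A of 6 E6.5 embryos (37 libraries). Region A of E7.5 embryos 4 to 6 was sampled in sections 3, 6 and 9 only (9 libraries) and serves as a separate look at the same region. All embryos were untreated and of the C57BL/6 strain, and the labels call the stages late gastrulation (E7.5) and early gastrulation (E6.5). The embryo is the replicate, so n = 3 for the gradients below.

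At E7.5 the anterior ectoderm is becoming the neural plate. As background, its proximal part gives rise to the forebrain and, at the rim, to surface ectoderm and the amnion border, while the part near the distal tip adjoins the node, the ciliated organizer from which the notochord arises. Head fate needs low WNT, NODAL and BMP signalling, and the homeobox gene Otx2 opposes Gbx2 across the later boundary between midbrain and hindbrain. Retinoic acid, FGF and WNT signals from the node and streak posteriorize neural tissue.

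The values are FPKM, fragments scaled by transcript length and by the mapped total of the library, as the authors deposited them. FPKM sums ran from 713765 to 1057098 in embryo 1 and from 711319 to 949293 in embryo 2. In embryo 3 they were 258851 to 302868 in sections 1 to 4 and 474368 to 606999 in sections 5 to 9, so that its sums change along the axis, and the part of this in its gradients is given below by rescaling. Between 6848 and 11319 genes reached 1 FPKM per library. Reads were not given per library; a rough depth from the FPKM worth of 1 read was 5.44 to 19.8 M reads. Section 5 of embryo 1 had the fewest genes, and 97 genes whose median over the 27 libraries exceeded 20 FPKM are listed at 0 in it, against at most 13 in any other library, so a 0 there can be a missed transcript.

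Node markers stood out in section 1, against a reading of the code as ectoderm, and were far lower in sections 3 to 9. The summed level of 17 node, notochord and axial mesendoderm markers was 5529, 1585 and 1363 FPKM in section 1 of embryos 1, 2 and 3, and 44.9 to 270 FPKM in sections 3 to 9. Section 2 held 81.6 to 540 FPKM of these markers, the highest in embryo 3. Section 1 is therefore called the distal tip below, and the counts of changed genes that rest on it are also given without it. The summed level of 20 mesoderm markers was 15.7 to 142 FPKM (median 70.7) in A. It was 90.1 to 480 FPKM (median 267) in 18 libraries of region MA, read as anterior mesoderm, from embryos 5 and 6. In A, 7 of the 20, among them Kdr, Foxf1 and Hand1, had a mean under 1 FPKM in every section. In section 1 of embryos 1, 2 and 3, 11, 11 and 12 mesoderm markers reached 1 FPKM. The median number per library was 3 in sections 2 to 9 of A and 12 in MA. The summed level of 19 endoderm markers was 227 to 1018 FPKM (median 505) in A. It was 357 to 13129 FPKM (median 1408) in 18 libraries of EA, read as anterior endoderm. In A, 6 of the 19, among them Ttr, Gata4, Gata6 and Hnf4a, had a mean under 1 FPKM in every section. In section 1 of embryos 1, 2 and 3, 14, 10 and 13 endoderm markers reached 1 FPKM. The median number per library was 7 in sections 2 to 9 of A and 18 in EA. Globin RNA was uneven, with Hba-a1 at 8266 FPKM in section 9 of embryo 1 and at 2.25 and 0 FPKM in section 9 of embryos 2 and 3. In such bulk samples, fewer cells of a type and less RNA per cell cannot be told apart.

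Forebrain factors rose along this axis, and many node, hindbrain and streak genes fell. For each gene, a line was fitted to log2(FPKM + 1) against section number in each embryo, and its change over the 8 steps between section 1 and section 9 is called the gradient. This scale understates the change of genes at low levels. Of 10417 genes with a mean of at least 1 FPKM, 853 (8.19%) had a gradient at an adjusted p under 0.05 by limma, 383 (3.68%) higher toward the proximal end and 470 (4.51%) lower. The sign was the same in all 3 embryos for 821 of the 853. Without embryo 1 the count was 421, and without embryo 2 it was 506. Without section 1, 415 of 10168 genes (4.08%) passed, 303 (2.98%) higher and 112 (1.1%) lower, and these included 217 of the 383 and 107 of the 470. The split also moved with scaling: with every library rescaled to an equal sum, 286 genes were higher and 624 lower, and with equal medians 507 and 564. The median gradient of all genes was 0.25 as deposited, -0.12 with equal sums and 0.13 with equal medians, and gradients below are to be read against these values.

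Most genes that fell did so from the tip itself. Of the 470, 413 had their highest mean level in section 1 and 42 in section 2. The 383 that rose peaked less sharply, 147 of them in section 9, 88 in section 8 and 90 in section 7. The peak sections of the 3 embryos lay within 1 section of each other for 84.0% of the genes that fell and 26.4% of those that rose, against 14.1% of all genes tested. The called genes were picked by their slopes in these same libraries, so part of this agreement was built in. It is a description and not a test of the replicates.

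**Figure D1:**
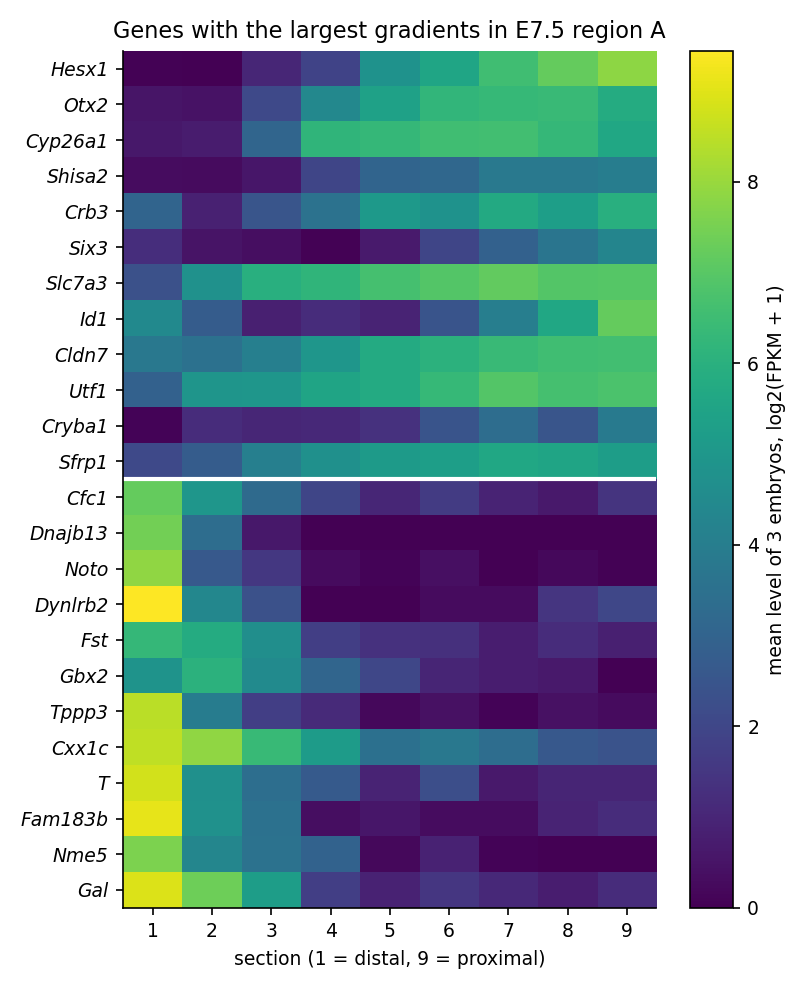
Mean level of 3 embryos, log2(FPKM + 1), of the 12 genes with the largest rising and the 12 with the largest falling gradient in E7.5 region A (rows) in sections 1 to 9 (columns, distal to proximal). The rising genes are brightest in sections 5 to 9, with Hesx1 brightest in section 9, and most falling genes are bright in section 1 alone, while Gbx2, Cxx1c, Gal and Fst extend into sections 2 and 3.

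The transcription factors of the forebrain and head rose steeply. Of the 20 members of the list of anterior neural and forebrain factors, 7 had a mean of at least 1 FPKM and were tested. All 7 rose and none fell (median gradient 3.30, against 0.25 for all genes), and without section 1 this was 6 of 8 (median 3.01). A gene near 0 distally, such as Hesx1, passed this filter only through its proximal sections, so the count is not a test of the list. The list was written with earlier results of these data known. With equal sums or equal medians 6 of the 7 still rose.

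Hesx1, a homeobox repressor needed for forebrain and pituitary (GRCm38 chr14:26994416-27002329, plus strand), had the largest gradient. It was at 0.0886, 0 and 0 FPKM in section 1 of embryos 1, 2 and 3, at 50.5, 29.8 and 13.3 FPKM in section 5 and at 475, 314 and 77.2 FPKM in section 9. All values in sections 7 to 9 (35.9 to 475 FPKM) lay above all values in sections 1 to 3 (0 to 2.54 FPKM). The gradient was 8.99 (SE 0.51; 10.49, 9.30 and 7.19 by embryo; limma adjusted p = 2.7e-64). For these gradients, and for the changes in embryos 4 to 6 below, limma set the spread of most genes to the value shared by genes of like level. Very small p-values therefore rest on that shared spread more than on 3 embryos. In the other tests below, the spread of the gene itself also entered.

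Otx2, the homeobox gene on which head formation depends (chr14:48657677-48673819, minus strand), came on further distally and levelled off. It was at 0.69, 12.1 and 2.55 FPKM in section 3 of embryos 1, 2 and 3, at 30.4, 29.96 and 8.87 FPKM in section 4 and at 96.3, 73.3 and 57.2 FPKM in section 6. It peaked in sections 8, 8 and 7 and was at 43.3, 80.8 and 46.03 FPKM in section 9. Its gradient was 6.54 (SE 0.53, limma adjusted p = 1.28e-32). Six3, a homeobox gene of the most rostral forebrain (chr17:85613608-85629302, plus strand), was at 0.0377, 1.21 and 0.791 FPKM in section 5, at 8.12, 7.04 and 4.93 FPKM in section 7 and at 18.7, 26.8 and 12.9 FPKM in section 9. Its gradient was 3.85 (SE 0.40, limma adjusted p = 3.39e-19), and 5.06 without section 1, where it stood at 0.928 to 2.29 FPKM.

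The section in which a gene first reached 50% of its peak was earlier for Otx2 than for Hesx1 and Six3 in each embryo. Otx2 did so in sections 6, 5 and 6 of embryos 1, 2 and 3, Hesx1 in sections 9, 8 and 8, and Six3 in sections 8, 9 and 9. Hesx1 and Six3 had no fixed order between them, since Six3 came first in embryo 1 and Hesx1 in embryos 2 and 3. Lhx5, a LIM homeobox gene of the anterior neural plate, was at 0 FPKM in section 1 of every embryo and at 11.9, 8.96 and 3.31 FPKM in section 9 (gradient 3.30, SE 0.39, limma adjusted p = 5.79e-15). In section 10, sampled in embryo 3 only, Hesx1 was at 55.3, Otx2 at 71.4 and Six3 at 11.0 FPKM.

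**Figure D2:**
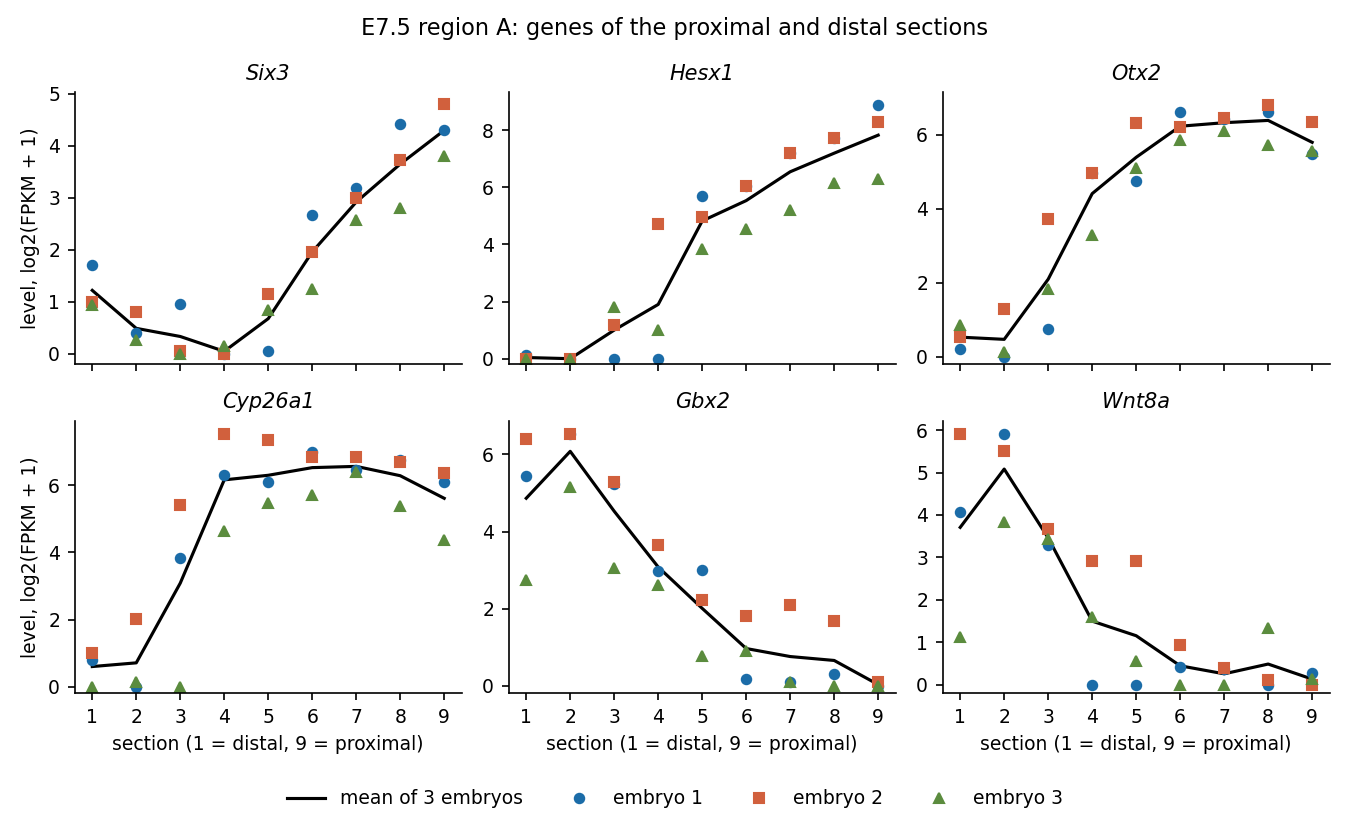
Level, log2(FPKM + 1), by section (1 = distal, 9 = proximal) in E7.5 region A; points are embryos 1 to 3 and the line is their mean. Six3, Hesx1, Otx2 and Cyp26a1 are at most 3.01 FPKM in section 2 and higher from section 7 on, where Gbx2 is at most 3.24 and Wnt8a at most 1.55 FPKM.

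Some genes that restrain WNT rose with the head factors, as did the receptor gene Fzd5, and others fell. Shisa2, which holds back WNT and FGF receptors in the endoplasmic reticulum (chr14:59625308-59631660, plus strand), was at most 1.32 FPKM in sections 1 to 3 and at 4.91 to 25.0 FPKM in sections 7 to 9 (gradient 4.40, SE 0.44, limma adjusted p = 1.64e-21). Sfrp1, a secreted WNT-binding protein, was at 3.07, 5.20 and 2.13 FPKM in section 1 and at 34.7, 50.4 and 30.3 FPKM in section 9 (gradient 3.29, SE 0.54, limma adjusted p = 5.48e-08). Its call was lost without sections 1 and 2 (adjusted p = 0.195). The receptor gene Fzd5 was at 0.0868, 0.171 and 0 FPKM in section 1 and at 11.2, 12.1 and 7.52 FPKM in section 9 (gradient 3.73, SE 0.41, limma adjusted p = 1.07e-17). Among 5 WNT antagonists tested, 3 rose and 2 fell (2 and 2 without section 1), against 3.68% and 4.51% of all genes tested. The 2 that fell were Frzb (gradient -3.17, limma adjusted p = 1.36e-14) and Cer1 (gradient -2.44, limma adjusted p = 1.14e-08).

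Cyp26a1, the enzyme that breaks down retinoic acid (chr19:37697798-37701536, plus strand), formed a broad plateau. It was at 13.3, 41.8 and 0 FPKM in section 3 of embryos 1, 2 and 3, at 78.8, 186 and 23.8 FPKM in section 4 and at 67.9, 82.2 and 19.6 FPKM in section 9. Peaks lay in sections 6, 4 and 7. Its gradient was 5.89 (SE 0.54, limma adjusted p = 9.75e-25). Aldh1a2, which makes retinoic acid, ran the other way (gradient -3.65, SE 0.39, limma adjusted p = 6.11e-19), and without section 1 its mean was too low to be tested. Of 11 retinoic acid genes tested, 2 rose and 4 fell (median gradient -0.16), and without section 1 this was 2 and 1 of 10 (median 0.54). With section 1, 3.68% of all genes tested rose and 4.51% fell.

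The distal sections next to the tip carried genes known from hindbrain and posterior neural tissue. Such genes are not particular to A, since Gbx2 was at 11.0 to 50.1 FPKM in sections 3, 6 and 9 of P. The identity of the cells was not tested. Gbx2, the homeobox gene that opposes Otx2 (chr1:89927956-89931179, minus strand), peaked in section 2 of every embryo, at 92.1, 92.2 and 34.7 FPKM in embryos 1, 2 and 3. It was at 42.7, 83.4 and 5.69 FPKM in section 1 and at 0, 0.0588 and 0 FPKM in section 9. Its gradient was -6.04 (SE 0.45, limma adjusted p = 1.46e-38), and -6.64 without section 1.

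Otx2 and Gbx2 crossed between the same sections in each of embryos 1 to 3, a comparison chosen after the values were seen. In section 3, Otx2 stood at 0.69, 12.1 and 2.55 FPKM and Gbx2 at 36.4, 38.1 and 7.35 FPKM in embryos 1, 2 and 3. In section 4, Otx2 stood at 30.4, 29.96 and 8.87 FPKM and Gbx2 at 6.84, 11.6 and 5.08 FPKM. From section 4 on, Otx2 stayed above Gbx2 in all 3 embryos. Embryos 4, 5 and 6 did not share this place. In their section 3, Otx2 was already at 20.99, 11.3 and 35.7 FPKM, with Gbx2 at 0 FPKM.

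Wnt8a, a WNT ligand of the streak and posterior neural plate, was highest in section 2 of embryos 1 and 3 (58.8 and 13.2 FPKM) and in section 1 of embryo 2 (59.5 FPKM), and at 0 to 0.208 FPKM in section 9 (gradient -4.74, SE 0.41, limma adjusted p = 9.48e-28). Hes3, a HES-family repressor of neural progenitors, fell by 4.34 on the log2 scale (SE 0.42, limma adjusted p = 3.13e-22). Cdx1, a regulator of Hox genes, was at 90.7, 102 and 17.6 FPKM in section 1 of embryos 1, 2 and 3 and at 0 to 0.0886 FPKM in section 9.

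Counted by list, 6 of 7 tested midbrain and hindbrain factors (20 in the list) fell and 1 rose (4 and 0 of 7 without section 1). All 5 tested Hox and Cdx genes (20 in the list) fell (3 of 4 without section 1). The filter on the mean also lets through genes that are high in the distal sections alone. These counts, and those of the lists that follow, are therefore not tests of the lists. The shares of all genes tested were 4.51% lower and 3.68% higher. Of 15 WNT ligands and targets, 11 fell and 2 rose (7 and 2 of 14 without section 1), and of 14 primitive streak genes 11 fell and 1, Cyp26a1, rose (5 and 1 of 9 without section 1). Among 17 FGF ligands, receptors and feedback genes 8 fell and 1 rose (3 and 1 of 16). Fgf8, the FGF ligand of the streak, was at 16.0, 15.9 and 11.0 FPKM in section 1 and 0.172, 1.28 and 0.64 FPKM in section 9 (gradient -3.00, SE 0.38, limma adjusted p = 6.33e-13). No member of these 5 lists that passed changed sign under either rescaling. Node markers were high in the same section 1, and their sums are given above. The counts without section 1 come from a line over fewer sections and from a changed set of tested genes. Section 2 held 81.6 to 540 FPKM of node markers, and only embryo 3 lay above the 44.9 to 270 FPKM of sections 3 to 9. The part of the tip in the counts was not measured.

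Some NODAL pathway genes fell. Of 11 tested, 6 fell and none rose (3 and 0 of 8 without section 1; 3 with equal sums and 4 with equal medians). The median gradient was -1.26, and -0.0060 without section 1. Among all genes tested, 4.51% fell and 3.68% rose. Some members passed the filter on the mean only with section 1, so this count is not a test of the list. Fst, the activin-binding protein follistatin, was at 76.0, 59.3 and 101 FPKM in section 1, 107, 19.7 and 78.1 FPKM in section 2 and 0.128, 1.01 and 1.47 FPKM in section 9 (gradient -5.85, SE 0.45, limma adjusted p = 1.96e-35). Cfc1, a NODAL co-receptor gene, was at 371, 97.9 and 87.5 FPKM in section 1 and 0.165, 7.09 and 1.08 FPKM in section 9 (gradient -5.48, SE 0.45, limma adjusted p = 1.1e-31). Nodal itself was at 30.2, 7.43 and 37.8 FPKM in section 1 and was listed at 0 or under 0.1 FPKM in sections 5 to 9 of every embryo. Its call was lost under both rescalings.

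The distal tip was high in node genes and also held mesoderm markers. The mesoderm marker Meox1 peaked in section 1 of embryos 1, 2 and 3, at 23.7, 16.6 and 4.40 FPKM. Another, Tbx6, reached 67.8 FPKM in sections 1 to 3 and at most 2.71 FPKM in sections 2 and 3. Noto, a homeobox gene restricted to the node and nascent notochord (chr6:85423886-85428877, plus strand), was at 674, 183 and 107 FPKM in section 1 of embryos 1, 2 and 3, at 1.80, 0.94 and 44.5 FPKM in section 2 and at most 11.96 FPKM beyond. T (Brachyury), the T-box gene of streak and notochord, was at 1216, 238 and 299 FPKM in section 1 and at 14.8, 13.4 and 79.9 FPKM in section 2. In section 2 both genes were highest in embryo 3. Of 16 tested node, notochord and axial mesendoderm markers, 11 fell and 2 rose (7 and 2 of 13 without section 1), which were Sox9 and Foxd4, and 1 of the 2 no longer passed with rescaled libraries. Among all genes tested, 4.51% fell and 3.68% rose. The filter on the mean lets through genes that are high in section 1 alone, so this count is not a test of the list. Foxa2, a forkhead gene of node and floor plate, spread further, with 26.5 FPKM in sections 1 and 2 of embryo 3 and 3.19, 13.1 and 5.42 FPKM in section 3 of embryos 1, 2 and 3.

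**Figure D3:**
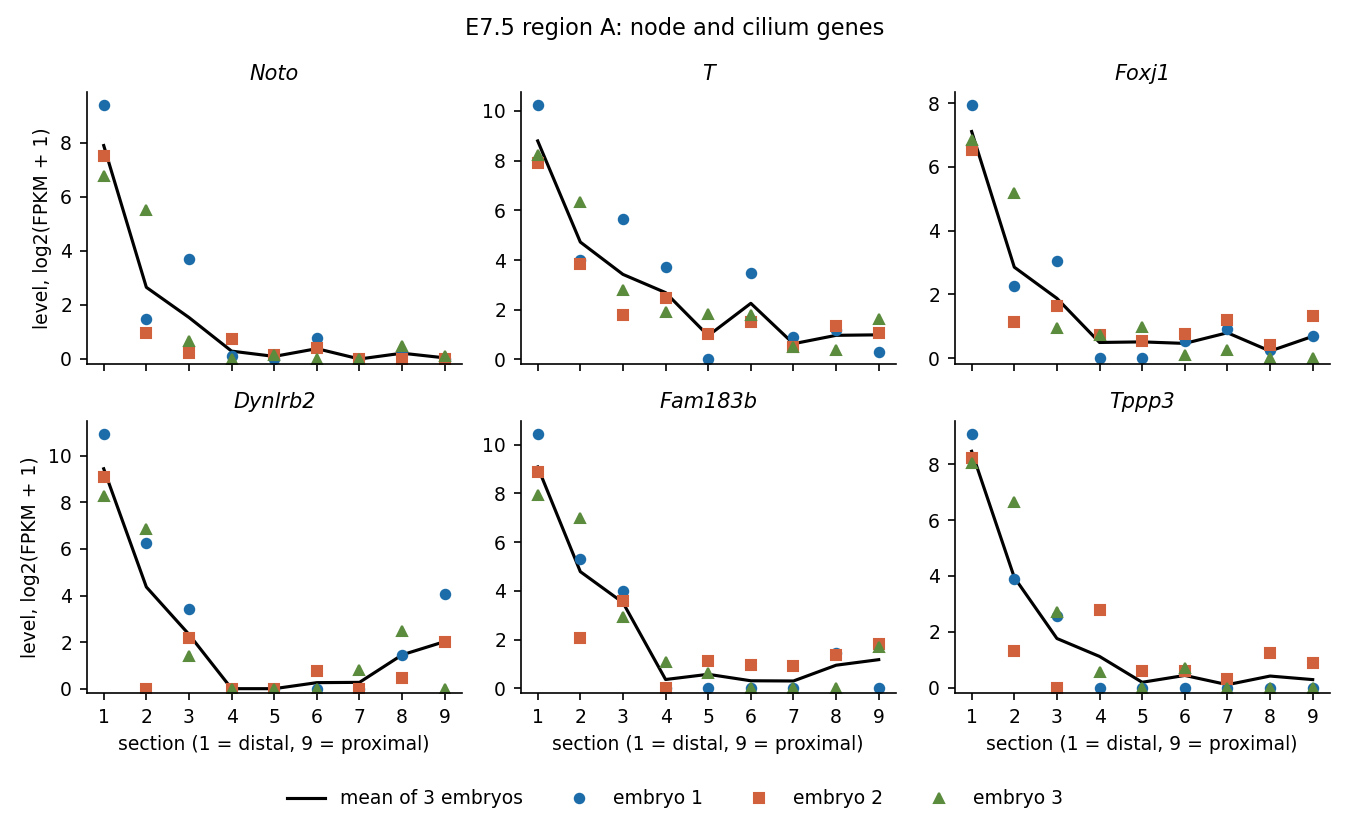
Level, log2(FPKM + 1), of node and cilium genes by section (1 = distal, 9 = proximal) in E7.5 region A; points are embryos 1 to 3 and the line is their mean. All 6 genes are highest in section 1 of each embryo, and in section 2 each is highest in embryo 3.

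Genes of motile cilia were among the steepest of all. Foxj1, the forkhead regulator of motile ciliogenesis, was at 247, 90.9 and 115 FPKM in section 1 and at 3.79, 1.19 and 35.0 FPKM in section 2. Dynlrb2, a dynein light chain gene, was at 1975, 548 and 309 FPKM in section 1 and at 74.5, 0 and 115 FPKM in section 2. Dnajb13, a radial spoke protein gene, was at 394, 125 and 106 FPKM in section 1 and is listed at 0 in all 18 libraries of sections 4 to 9. Fam183b was at 1402, 468 and 244 FPKM, Nme5 at 456, 140 and 108 FPKM and Tppp3 at 546, 301 and 265 FPKM in section 1. These 5 fell with gradients of -5.48 to -6.98 (SE 0.38 to 0.44, limma adjusted p at most 4.5e-36 each). The gradient of Dynlrb2 was 0.64 without sections 1 and 2 (adjusted p = 0.801), and that of Tppp3 lost its call under both rescalings. Fam183b did not pass without embryo 3 (adjusted p = 0.0948), nor Dnajb13 with Theil-Sen slopes (adjusted p = 0.0841). In section 2, Nme5 was higher in embryo 1 (50.01 FPKM) than in embryo 3 (35.1 FPKM).

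Motile cilium genes are known targets of RFX factors, which bind the X-box, an inverted repeat of GTTGCC. The letters GTTGCC were looked for on both strands in the 250 bases before the RefSeq start of each gene, in RefSeq promoters on GRCm38.p6. Of the 12 steepest falling genes 8 had a promoter there and 2 held the letters, Dynlrb2 and Fam183b. Of the 12 steepest rising genes 9 had a promoter and 2 held them, Otx2 and Six3, as did 3195 of the 27025 genes (11.8%) with a RefSeq promoter. The upstream sequences of Dynlrb2 (chr8:116504765-116505014, plus strand), Fam183b (chr11:58801961-58802210, minus strand) and Six3 (chr17:85620584-85620833, plus strand) are shown 5′ to 3′ because they hold the letters at both ends of the axis, with the 6-base matches in capitals.
Dynlrb2: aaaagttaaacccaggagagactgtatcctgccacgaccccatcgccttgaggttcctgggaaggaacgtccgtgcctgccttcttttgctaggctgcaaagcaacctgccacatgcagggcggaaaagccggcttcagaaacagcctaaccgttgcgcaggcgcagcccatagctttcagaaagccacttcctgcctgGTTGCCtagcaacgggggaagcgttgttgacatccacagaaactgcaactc
Fam183b: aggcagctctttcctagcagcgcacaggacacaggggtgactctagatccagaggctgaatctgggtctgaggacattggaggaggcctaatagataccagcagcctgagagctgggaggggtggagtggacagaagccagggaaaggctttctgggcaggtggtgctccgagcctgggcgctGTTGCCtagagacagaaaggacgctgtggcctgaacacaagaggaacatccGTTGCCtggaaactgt
Six3: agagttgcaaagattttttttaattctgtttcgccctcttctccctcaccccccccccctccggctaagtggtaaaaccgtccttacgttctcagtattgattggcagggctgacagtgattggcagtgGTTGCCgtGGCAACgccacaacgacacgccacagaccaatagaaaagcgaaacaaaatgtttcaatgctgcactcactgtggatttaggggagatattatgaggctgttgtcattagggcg
Dynlrb2 has 1 match, Fam183b has 2 on 1 strand, and Six3 has 2, 1 on each strand. The Six3 stretch lies inside the span given for Six3 above, which is from GENCODE and starts further upstream. A match is a description of letters and not a site in use.

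Gal and Cxx1c reached further than the node genes. Gal, which encodes the neuropeptide galanin, was at 1148, 367 and 284 FPKM in section 1 of embryos 1, 2 and 3, at 343, 92.7 and 134 FPKM in section 2 and at 77.2, 29.5 and 21.7 FPKM in section 3, and under 10 FPKM from section 4 on. Its gradient was -7.90 (SE 0.48, limma adjusted p = 1.94e-57), and -6.36 without section 1. Its call was lost when embryo 3 was left out (adjusted p = 0.103). Cxx1c declined stepwise, at 723, 391 and 175 FPKM in section 1, 184, 105 and 28.3 FPKM in section 3 and 2.48, 29.4 and 12.7 FPKM in section 5. Trh, which encodes thyrotropin-releasing hormone, was at 119, 88.8 and 170 FPKM in section 1 and 0, 5.49 and 1.83 FPKM in section 9 (gradient -5.26, SE 0.54, limma adjusted p = 1.07e-19).

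Id1 was high at both ends of the axis, and higher proximally. Id1, an inhibitor of bHLH factors and a direct BMP target (chr2:152736251-152737410, plus strand), was at 36.4, 17.3 and 15.1 FPKM in section 1 of embryos 1, 2 and 3. It was at 0, 3.31 and 0.662 FPKM in section 5 and at 129, 208 and 119 FPKM in section 9. Its gradient was 3.63 (SE 0.48, limma adjusted p = 6.03e-12) with section 1 and 6.21 without it. In section 10 of embryo 3 it was at 215 FPKM.

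Its relatives Id2 and Id3 did not share the dip to near 0. Id2 was at 16.3, 32.3 and 9.34 FPKM in section 1, at 40.3, 50.7 and 33.6 FPKM in section 5 and at 159, 179 and 111 FPKM in section 9, and Id3 at 193, 520 and 29.3 FPKM in section 1, at 136, 321 and 150 FPKM in section 5 and at 550, 834 and 407 FPKM in section 9. Gradients were 1.59 (SE 0.58, limma adjusted p = 0.0732) for Id2 and 1.66 (SE 0.64, limma adjusted p = 0.0945) for Id3, so neither passed; both passed when the 27 libraries were fitted singly with embryo as a block. Bmp4, a BMP ligand, stayed at or under 2.35 FPKM in all 27 libraries, Msx1 under 1 FPKM, Msx2 at or under 2.18 FPKM and the surface ectoderm factor Tfap2a at or under 1.94 FPKM. Tfap2a was highest in section 9 of every embryo, at 1.92, 1.94 and 1.16 FPKM. Of 13 tested BMP ligands, antagonists and targets, 1 rose and 3 fell (1 and 1 of 12 without section 1; 3 and 2 with either rescaling). The 3 were Chrd, Nog and Bmp7, of which Chrd and Nog encode BMP antagonists of the node. Among all genes tested, 3.68% rose and 4.51% fell.

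**Figure D4:**
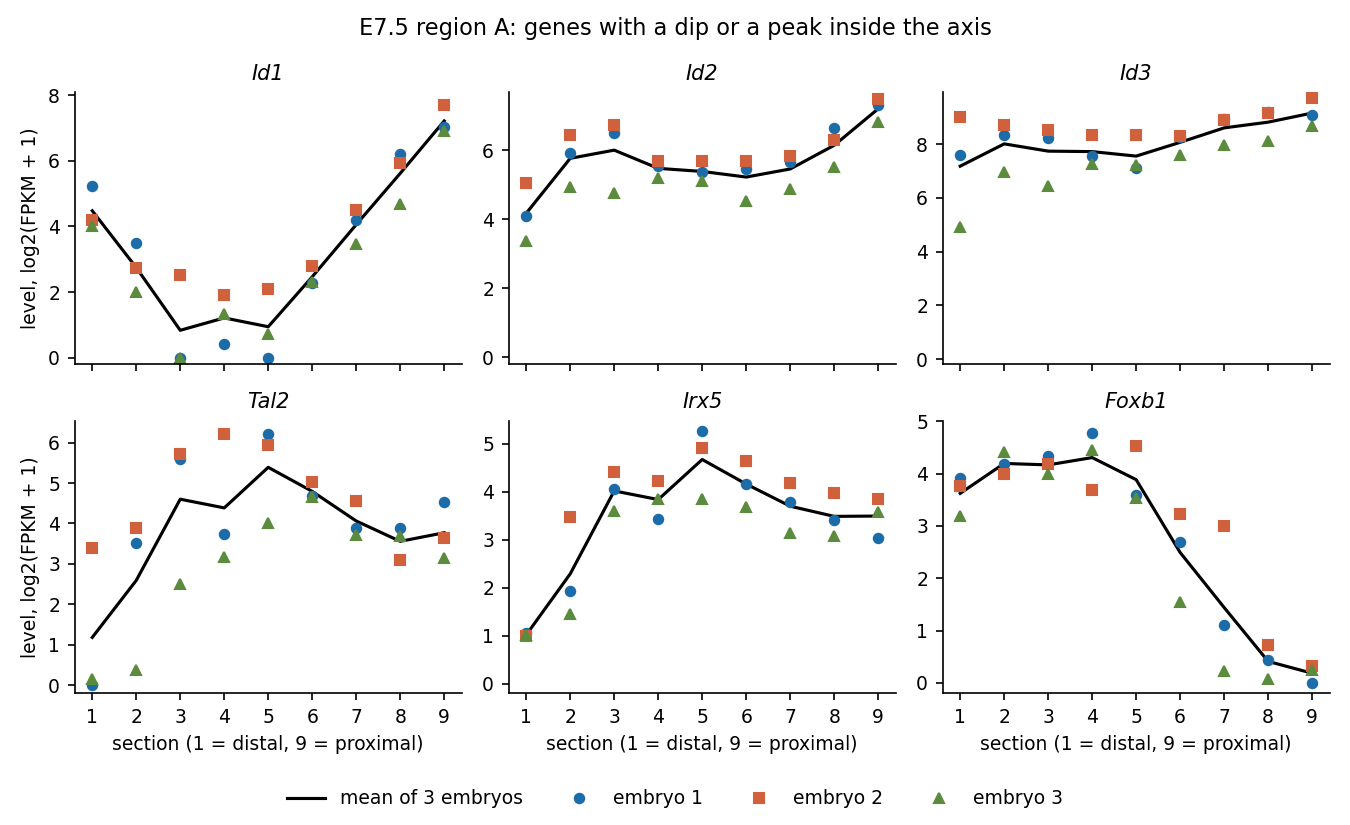
Level, log2(FPKM + 1), by section (1 = distal, 9 = proximal) in E7.5 region A; points are embryos 1 to 3 and the line is their mean. Id1 is lowest in sections 3 to 5 and high at both ends, whereas Tal2 and Irx5 are highest in sections 3 to 6 and Foxb1 is level to section 5 and near 0 in section 9.

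Some genes were highest inside the axis. A curvature was taken for each embryo as the fitted level at section 5 minus the mean of the fitted levels at sections 1 and 9. Of 10417 genes, 149 (1.43%) had a curvature by limma, 9 (0.0864%) upward and 140 (1.34%) downward. These counts rest on the tip and on embryo 3: without section 1 there were 4 of 10168 (0.0393%), 2 upward (0.0197%) and 2 downward (0.0197%), and without embryo 3 none. Tal2, a bHLH gene, had its peak at 73.1, 73.7 and 24.4 FPKM in sections 5, 4 and 6 of embryos 1, 2 and 3 and was at 21.9, 11.5 and 7.88 FPKM in section 9 (curvature 2.62, SE 0.26, limma adjusted p = 0.00844). Irx5, an Iroquois homeobox gene, peaked at 37.3, 28.9 and 13.4 FPKM in sections 5, 5 and 4 (curvature 2.15, SE 0.29, limma adjusted p = 0.0164). Foxb1, a forkhead gene of midbrain and hindbrain, held 8.17 to 26.3 FPKM in sections 1 to 5 and 0 to 0.649 FPKM in sections 8 and 9 (curvature 1.72, SE 0.29, limma adjusted p = 0.0369). None of these 3 passed without section 1. Upward curvature of Cyp26a1 (3.40, SE 0.26) and Otx2 (2.26, SE 0.28) and downward curvature of Id1 (-4.59, SE 0.41) did pass without it. The downward genes also included Dynlrb2, Fam183b, Pifo, Tppp3 and Dnajb13, whose levels in section 1 are far above the rest.

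Of 18 tested general neural plate genes, 2 rose and 1 fell (2 and 1 without section 1; 3 and 4 with either rescaling). Over all genes 3.68% rose and 4.51% fell, and a count this small says little about the list. Sox2, a SoxB1 factor of neural and pluripotent cells, was at 4.05, 12.01 and 0.396 FPKM in section 1 and 34.3, 30.5 and 29.5 FPKM in section 9, its peak in each embryo (gradient 2.45, SE 0.52, limma adjusted p = 8.29e-05). The call was lost without embryo 1. Pou3f1, a POU factor of anterior neurectoderm, was at 0.877, 1.93 and 0.119 FPKM in section 1 and 25.9, 24.7 and 13.2 FPKM in section 9 (gradient 3.14, SE 0.50, limma adjusted p = 2.46e-08), and did not pass without sections 1 and 2. The other SoxB1 genes stood low: Sox1 reached at most 4.11 FPKM and Sox3 at most 7.42 FPKM, with gradients of 0.21 and 0.006 (limma adjusted p = 0.879 for Sox1 and 0.996 for Sox3).

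Genes shared with the epiblast divided. Of 16 tested pluripotency and epiblast genes, 4 rose and 4 fell (3 and 3 of 15 without section 1). The shares of all genes tested were 3.68% and 4.51%. Utf1, a chromatin factor of pluripotent cells, was at 4.67, 27.6 and 1.76 FPKM in section 1 and 142, 108 and 82.9 FPKM in section 9 (gradient 3.37, SE 0.58, limma adjusted p = 4.16e-07), and did not pass without embryo 1 (adjusted p = 0.0902). Slc7a3, a cationic amino acid transporter, was at 5.27, 17.6 and 0.154 FPKM in section 1 and at 129, 97.3 and 143 FPKM in section 9 (gradient 3.72, SE 0.60, limma adjusted p = 3.08e-08), and did not pass without sections 1 and 2. Pou5f1 (Oct4) was at 183, 179 and 104 FPKM in section 1 and at 136, 111 and 116 FPKM in section 9, and its gradient of -0.31 did not pass (limma adjusted p = 0.886).

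A few epithelial genes rose toward the proximal end. Of 18 tested junction and polarity genes, 5 rose and 1 fell (6 and 0 of 17 without section 1), against 3.68% and 4.51% of all genes tested. Crb3, a Crumbs polarity protein gene, was at 7.12, 3.47 and 14.5 FPKM in section 1, at 0, 2.88 and 0.596 FPKM in section 2 and at 86.8, 67.9 and 38.1 FPKM in section 9 (gradient 4.34, SE 0.52, limma adjusted p = 1.53e-14). The claudin gene Cldn7 was at 15.4, 6.24 and 20.3 FPKM in section 1 and at 83.1, 101 and 98.6 FPKM in section 9 (gradient 3.47, SE 0.57, limma adjusted p = 6.29e-08). Cryba1, a crystallin gene, reached 27.9, 14.6 and 6.33 FPKM in section 9, its peak in each embryo (gradient 3.34, SE 0.41, limma adjusted p = 8.73e-14).

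Few genes of the housekeeping and growth lists passed. Over all genes 8.19% passed, so counts this small say little about the lists. None of 12 tested basement membrane and matrix genes and none of 6 immediate early genes passed, with median gradients of -0.20 and 0.42. Of 24 cell cycle genes 1 fell, the CDK inhibitor gene Cdkn1a (gradient -4.24, SE 0.48, limma adjusted p = 2.89e-16), and of 19 glycolysis genes 1 rose. With equal sums, 4 cell cycle genes, 2 matrix genes and 1 immediate early gene fell and 1 matrix gene rose. Of 13 imprinted genes 2 rose, Mest and H19, and none fell, and with equal sums 2 rose and 3 fell.

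Embryos 4 to 6 were then used as a separate look, over the change from section 3 to section 9. Their rough depth was lower, at 2.29 to 4.65 M reads. Of 9033 genes 17 passed by limma (0.188%), 5 higher (0.0554%) and 12 lower (0.133%). Of the 383 genes that rose in embryos 1 to 3, 306 could be tested and 190 had a positive change, with a median of 0.20, against 1.08 for the 383 over the same sections of embryos 1 to 3 and 0.00 for all genes in embryos 4 to 6. Of the 470 that fell, 158 could be tested and 106 had a negative change, with a median of -0.45, against -0.82 in embryos 1 to 3. With libraries rescaled to equal sums or equal medians, 1 gene, Id1, passed, and 5 genes passed without embryo 4 and 2 without embryo 6.

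Id1 was at 0, 0 and 1.53 FPKM in section 3 of embryos 4, 5 and 6 and at 104, 118 and 235 FPKM in section 9 (change 6.72, SE 0.66, limma adjusted p = 1.83e-20), close to its change of 6.37 in embryos 1 to 3. Id2 was at 7.67, 29.0 and 10.8 FPKM in section 3 and at 115, 206 and 166 FPKM in section 9 (change 3.45, SE 0.63, limma adjusted p = 9.45e-05). Hesx1 was at 5.47, 4.35 and 1.13 FPKM in section 3 and at 23.5, 53.6 and 4.61 FPKM in section 9, and Six3 at 2.58, 0.118 and 0.479 FPKM in section 3 and at 5.90, 7.88 and 7.02 FPKM in section 9. Both were higher in section 9 of every embryo but did not pass (limma adjusted p = 0.364 each). Otx2 was already at 20.99, 11.3 and 35.7 FPKM in section 3, and Gbx2 was at 0 to 0.193 FPKM in all 9 libraries. Otx2 was thus above Gbx2 in section 3, where embryos 1 to 3 had the reverse. Cyp26a1 ran against its gradient in embryos 1 to 3, at 28.3, 25.9 and 4.54 FPKM in section 3 and 3.30, 13.5 and 0 FPKM in section 9 (change -2.05, SE 0.67, limma adjusted p = 0.513). Whether a section number marks the same place in the 2 sets of embryos was not tested.

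To see which gradients belong to the anterior side, the change from section 3 to section 9 in A was set against that in P of the same embryos (3 to 6). Of 9355 genes, 1 passed by limma (0.0107%), and 552 had an unadjusted p under 0.05. This gene, Spink3, was at 0, 152, 21.2 and 16.7 FPKM in section 3 of A and 0, 0, 1.60 and 79.8 FPKM in section 9, against 10.1, 165, 9.43 and 0 FPKM in section 3 of P and 153, 12.5, 219 and 349 FPKM in section 9. The difference of the changes was -5.29 (SE 0.64, limma adjusted p = 0.0487) with the same sign in 4 of 4 embryos, although A and P each varied widely, and it did not pass without embryo 5 or without embryo 6, or with rescaled libraries. Id1 changed by 6.76 ± 0.17 in A and by 4.35 ± 0.44 in P (SD, n = 4); the difference of 2.41 (SE 0.39) was positive in 4 of 4 embryos but did not pass (limma adjusted p = 0.236). Hesx1 changed by 2.78 ± 1.39 in A and by -0.18 ± 1.34 in P (difference 2.96, SE 0.55, limma adjusted p = 0.298). In level, with no test, Otx2 was at 11.3 to 54.7 FPKM in the 9 libraries of A of embryos 4 to 6, against 0 to 4.80 FPKM in the 12 of P. Gbx2 was at 0 to 0.193 FPKM in these 9 against 11.0 to 50.1 FPKM in P. Embryo 3 is not among these 9 libraries of A, and its section 3 of A broke this separation. Otx2 was at 2.55 FPKM there, inside the range of P, and Gbx2 was at 7.35 FPKM.

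Set against the anterior epiblast a day earlier, some E7.5 gradients differed, and fewer did so without the tip. In this comparison the axis of each embryo is scaled to run from 0 (its distal-most section of A) to 1 (its proximal-most one), with 3 embryos at E7.5 and 6 at E6.5. The E6.5 embryos have no section 1 coded A, so their axis leaves out the tip, while the axis at E7.5 starts in the tip with its node markers. Of 10067 genes, 357 differed by limma (3.55%), 105 higher (1.04%) and 252 lower (2.5%), and 106 without section 1 at E7.5 (49 higher and 57 lower). Without E7.5 embryo 1 the count was 216, and without E6.5 embryo 1 it was 594. Of the 14 genes named for this comparison, 12 passed in every alternative run, and the others, Id1 and Six3, did not.

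Otx2 had a slope of 6.54 at E7.5 and -0.07 at E6.5 (difference 6.61, SE 0.48, limma adjusted p = 3.77e-08). At E6.5 it stood at 32.5 to 62.4 FPKM in the most distal and 22.3 to 48.9 FPKM in the most proximal section, so it was present at both ends. Hesx1 had slopes of 8.99 at E7.5 and -0.29 at E6.5 (difference 9.29, SE 0.62, limma adjusted p = 1.96e-08) and reached at most 1.59 FPKM in the end sections at E6.5. Six3 had slopes of 3.85 at E7.5 and 0.43 at E6.5 (difference 3.42, SE 0.43, limma adjusted p = 2.16e-05). Pou3f1 had slopes of 3.14 at E7.5 and -0.74 at E6.5 (difference 3.88, SE 0.51, limma adjusted p = 4.08e-05). Slopes at E7.5 and E6.5 were 4.34 and -0.35 for Crb3, 3.72 and -0.25 for Slc7a3, and 2.97 and -1.78 for Slc35d3, and these 3 also passed.

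Fst was higher distally at E7.5 and higher proximally in all 6 embryos at E6.5. It had a slope of -5.85 at E7.5 and 2.74 at E6.5 (difference -8.60, SE 0.54, limma adjusted p = 1.24e-08), and was at 0.756 to 3.86 FPKM in the most distal and 9.07 to 33.0 FPKM in the most proximal section at E6.5. At E7.5 and E6.5, slopes were -6.46 and 1.91 for T (difference -8.37, SE 1.06), -6.36 and 1.99 for Cxx1c (difference -8.34, SE 0.70) and -5.48 and 1.22 for Cfc1 (difference -6.69, SE 0.99; limma adjusted p at most 0.000829 for these 3). The E6.5 slopes of these 3 had both signs among the 6 embryos, from -0.29 to 4.32 for T, from -0.26 to 3.65 for Cxx1c and from -2.27 to 2.77 for Cfc1, and no test was made of the E6.5 slope alone. Gal and Nme5 were listed at 0 to 0.21 FPKM at both ends at E6.5.

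Id1 kept its direction between the stages. Its slope was 3.63 at E7.5 and 7.23 at E6.5, and the difference of -3.60 (SE 0.53, limma adjusted p = 0.000148) was -1.80 without section 1 at E7.5 and did not pass (limma adjusted p = 0.164). At E6.5 Id1 was at 0 to 1.76 FPKM in the most distal section and 96.0 to 289 FPKM in the most proximal. Whether the same relative position holds comparable tissue at both stages was not tested.

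**Figure D5:**
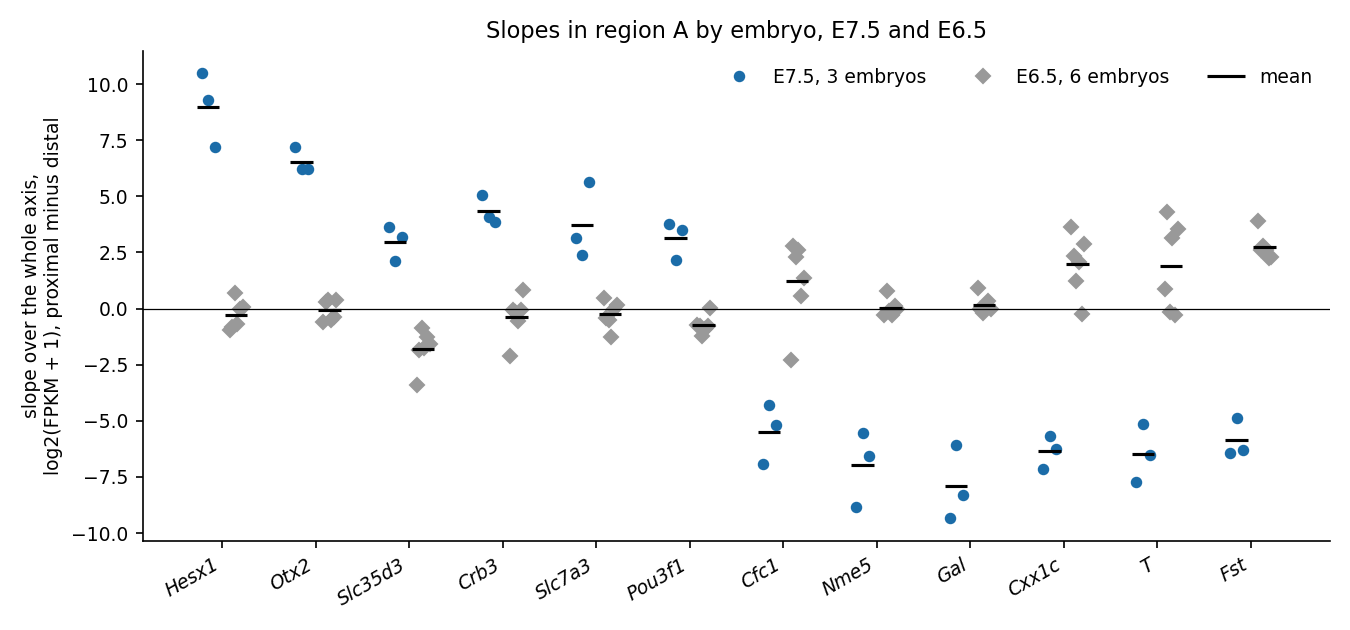
Slope of log2(FPKM + 1) over the whole axis of region A, proximal minus distal, for each embryo at E7.5 (left of each pair) and E6.5 (right); bars are means. For all 12 genes shown, the 3 E7.5 embryos lie on 1 side of 0 and apart from all 6 E6.5 embryos.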

How the data were processed

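The deposited values are FPKM per gene and library, one value for each laser-captured region; alignment used TopHat2 2.0.8b and quantification Cufflinks 2.1.1 on mm10, per the submitters' processing notes. The annotation and the options used are not given in the sources used here. Of the columns in the tables used, 150 were read, and 287 other value columns were not used. Groups came from the stage, embryo, section and region code in the labels.

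FPKM as deposited was turned into log2(FPKM + 1). In each embryo a line was fitted over sections, and the slopes were tested across embryos with limma 3.58.1 (R 4.3.3), with a mean-level trend, robust moderation, Benjamini-Hochberg adjustment at 0.05 and a mean of at least 1 FPKM. Python 3.11.15, numpy 2.4.6, pandas 2.3.3 and matplotlib 3.10.9 did the rest, and gene positions are from GENCODE M21. The test was tried on simulated data. Slopes are taken within an embryo, and A and P of 1 embryo share its number and its tissue, so they are paired by the animal. Samples sharing an embryo number across stages are different animals and were not paired.

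Named genes are up to 12 each way with the largest gradient among those past the threshold, with a change of at least 1, 1 sign in 3 embryos and at least 5 FPKM on average; predicted and small RNA genes were not named. Up to 6 each way were named for the other comparisons (the 5 with the smallest p in a direction where fewer than 5 passed), up to 4 for each of 29 lists, and a fixed set of markers. The members and lists were chosen with earlier results of these data known. Alternatives changed the pseudocount (0.1), the filter, the scaling, the slope estimator, the moderation, single embryos and the end sections. Labels do not say whether embryos came from separate litters.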

Additional observations from a re-analysis of the deposited data

Results flagged for a closer look

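The slope in A differed between E7.5 and E6.5, by limma's test of the difference, for 14 named genes. The differences, E7.5 minus E6.5 on the log2(FPKM + 1) scale, were 9.29 for Hesx1, 6.61 for Otx2, 4.75 for Slc35d3, 4.69 for Crb3, 3.97 for Slc7a3, 3.88 for Pou3f1 and 3.42 for Six3. They were -8.60 for Fst, -8.37 for T, -8.34 for Cxx1c, -8.08 for Gal, -7.02 for Nme5, -6.69 for Cfc1 and -3.60 for Id1.

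The change from section 3 to section 9 of Spink3 differed between A and P of the same embryos by -5.29. One E6.5 embryo stood apart from the other 5 in its slope of Fst, at 3.906. It was the single such embryo in 24 groups of slopes looked at, and chance gives about 1 in 20.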

How the results depend on the processing

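The number of gradients called in embryos 1 to 3, 853, was 267 with a mean of at least 5 FPKM, 323 with no filter, 415 without section 1, 263 without sections 1 and 2, 558 with Theil-Sen slopes and 270 with the spread shared with embryos 4 to 6. Leaving out 1 embryo gave 421 to 771. Fitting the 27 libraries with embryo as a replicate block gave 1224, and with no replicate block 684. The number of curvatures, 149, was 1 with a pseudocount of 0.1, 27 at 5 FPKM, 0 with no filter, 239 with equal medians, 4 without section 1, 84 without section 9 and 0 without sections 1 and 2, and 0 to 168 without 1 embryo. The number of changes in embryos 4 to 6, 17, was 9 at 5 FPKM, 0 with no filter, 1 with either rescaling and 2 to 12 without 1 embryo. The A minus P count of 1 became 0 with a pseudocount of 0.1, with no filter, with either rescaling and with plain moderation, 2 at 5 FPKM, and 0 to 2 without 1 embryo. The number of stage differences, 357, was 176 with a pseudocount of 0.1, 108 at 5 FPKM, 574 with no filter, 106 without section 1 and 216 to 594 without 1 embryo. The cause of these moves was not tested.

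Of 2025 gradients recomputed for 117 genes, 27 changed sign. Sox3 was at -0.089 with equal sums, -0.038 with equal medians, between -0.38 (without embryo 3) and 0.57 (without embryo 2), with -0.17 without embryo 1, -0.57 without section 1, -0.20 without section 9 and -0.45 without sections 1 and 2. Sox1 was between -0.016 (without embryo 3) and 0.45 (without embryo 1) with 1 embryo left out, -0.41 without section 1 and -1.13 without sections 1 and 2. Prl8a2 was between -0.087 (without embryo 1) and 3.07 (without embryo 2) with 1 embryo left out and -0.42 without sections 1 and 2. Without section 1, Apoa1 was at 0.76, Gas1 at 0.13, Hba-a2 at 0.24 and Pmp22 at 0.12. Without sections 1 and 2, Apoa1 was at 0.66, Gas1 at 0.40, Hba-a2 at 0.22, Bmp7 at 0.23, Dusp6 at 0.12, Dynlrb2 at 0.64, Igf2 at 0.39, Krt8 at 0.82 and Notch1 at 0.029. Jund was at -0.14 without section 9 and Prl2c2 at -0.16 with Theil-Sen slopes. Of the 24 genes with the largest gradients, 15 passed in every alternative run; the others were Dnajb13, Dynlrb2, Fam183b, Gal, Sfrp1, Slc7a3, T, Tppp3 and Utf1.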
